A study of Mus musculus with 42 samples.

Results

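β-catenin ChIP–seq peak lists from wild type (WT) caudal epiblast-like cells (CEpiLCs) were compared with lists from T/BraKO cells, which lack the T-box transcription factor T/BRA. The comparison rested on 6 of the 30 libraries with a peak list among the 42 samples of the series, chosen by antibody, genotype and treatment alone, with 3 replicates of each genotype. Mouse ESCs of the HM1 (129) strain were differentiated for 72 h in bFGF and the WNT secretion inhibitor LGK974, with the GSK3 inhibitor CHIR99021 (CHIR) added for the last day. β-catenin was immunoprecipitated with a rabbit antibody from crosslinked chromatin. All 6 samples, of both genotypes, therefore carried an exogenous activation of β-catenin. The labels name all of them biological replicates and mark all with EXP6, a tag they do not explain. The paper states that the triplicates of each condition came from separate experiments. The WT cells were the HM1 TetON parental line and the T/BraKO cells a T/Bra-/- line derived from it, so that line and genotype cannot be told apart. Peak lists hold no expression values, and the identity of the cells could not be checked against marker genes.

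β-catenin has no DNA-binding domain of its own and reaches cis-regulatory elements (CREs) through partners, of which the TCF/LEF factors are the best known. When GSK3 is inhibited it is spared from degradation and accumulates in the nucleus. T/BRA, itself a WNT target, binds T-box sites and is required for mesoderm formation in the primitive streak and tail bud.

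Each list gives, per peak, its position on mm10, its fold enrichment over control and the significance of that enrichment as −log10 of the q-value. The full lists held 40067, 108507 and 469083 peaks in WT and 132907, 61413 and 37687 in T/BraKO. Because the lists differed so much in length, the 20000 peaks with the highest −log10 q of each library were compared first, and the full lists afterwards. The weakest of those 20000 peaks had a −log10 q of 4.29, 5.64 and 11.1 in WT and 7.77, 6.07 and 5.35 in T/BraKO, so an equal number of peaks was not an equal stringency. Reads per library are not in the lists, and depth is therefore unknown. Overlapping peaks were merged into 69143 regions, and each region was described by the number of lists of either genotype that had a peak in it.

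Of the 69143 regions, 422 were called in 3 of 3 WT lists and 0 of 3 T/BraKO lists (0.61% of all regions), and 566 in 3 of 3 T/BraKO lists and 0 of 3 WT lists (0.819%). A further 3866 regions were called in all 6. These regions are referred to as only in WT, only in T/BraKO and in all 6. Most regions belonged to a single library: 28685 were called in 1 WT list and nothing else, and 22377 in 1 T/BraKO list and nothing else. The regions were picked by their calls, and no test was applied to the calls themselves.

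**Figure D1:**
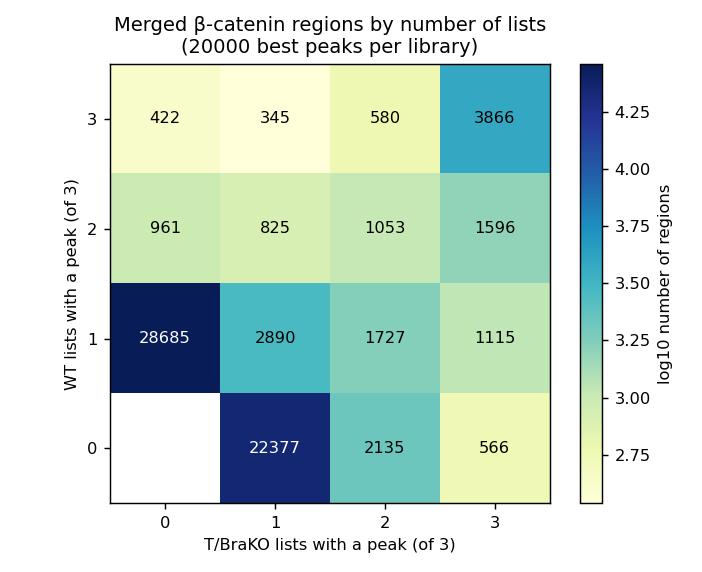
Number of merged regions by how many WT lists (vertical axis, 0 to 3) and how many T/BraKO lists (horizontal axis, 0 to 3) had a peak in them, for the 20000 best peaks of each library; colour gives log10 of the number. The corner cells hold 422 regions only in WT, 566 only in T/BraKO and 3866 in all 6, against 28685 and 22377 regions called in 1 library.

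The sequences that the regions only in WT were centred on are shown first, because their sequence was not used to choose them. All are read from the GRCm38.p6 (mm10) reference on the plus strand, centred on the summit of the best-ranked peak. The following 4 are the best-ranked regions only in WT with no T/BraKO peak even in the full lists. Capitals mark matches to the TCF/LEF words CTTTGAA or CTTTGAT on either strand. The printed Brinp3 and Scara3 stretches lack a match. The Brinp3 region does hold one within 100 bp of its summit, the window used for motif shares below, though not wholly inside the printed stretch.
Cypt12 region, chr3:17893444-17893594: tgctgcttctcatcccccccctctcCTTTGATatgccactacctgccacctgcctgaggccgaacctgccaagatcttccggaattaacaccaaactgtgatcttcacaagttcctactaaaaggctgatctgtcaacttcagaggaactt
Brinp3 region, chr1:147236726-147236876: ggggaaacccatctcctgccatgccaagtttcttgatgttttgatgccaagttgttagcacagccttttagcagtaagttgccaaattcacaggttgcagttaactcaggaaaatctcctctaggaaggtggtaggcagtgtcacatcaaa
Mmp21 region, chr7:133680117-133680267: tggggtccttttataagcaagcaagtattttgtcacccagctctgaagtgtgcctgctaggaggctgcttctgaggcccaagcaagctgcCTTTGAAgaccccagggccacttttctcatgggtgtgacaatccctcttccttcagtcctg
Scara3 region, chr14:65951095-65951245: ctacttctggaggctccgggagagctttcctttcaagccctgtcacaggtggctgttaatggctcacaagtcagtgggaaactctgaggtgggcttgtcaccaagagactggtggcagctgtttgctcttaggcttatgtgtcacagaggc

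The T-box word is shown next. In the following 5 sequences capitals mark the T-box word AGGTGTGA or its reverse complement TCACACCT, and in the Rabgap1l sequence also one TCF/LEF word. The first 4 are the best-ranked regions that hold the word among those only in WT with no T/BraKO peak in any full list, and the last is the match just inside the start of Mesp2, a somite-forming bHLH gene, shown with 10 bases on either side.
Sel1l region, chr12:93443986-93444136: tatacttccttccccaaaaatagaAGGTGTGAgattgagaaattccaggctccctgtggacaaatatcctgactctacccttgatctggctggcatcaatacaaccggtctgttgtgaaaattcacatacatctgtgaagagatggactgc
Rabgap1l region, chr1:160601320-160601470: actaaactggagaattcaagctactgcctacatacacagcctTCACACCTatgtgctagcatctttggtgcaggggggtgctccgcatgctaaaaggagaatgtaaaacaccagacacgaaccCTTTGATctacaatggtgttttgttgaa
Hs6st2 region, chrX:51651050-51651200: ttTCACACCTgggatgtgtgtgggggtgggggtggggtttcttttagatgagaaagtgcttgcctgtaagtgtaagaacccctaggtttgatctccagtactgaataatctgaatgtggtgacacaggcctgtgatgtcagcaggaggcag
Shb region, chr4:45657420-45657570: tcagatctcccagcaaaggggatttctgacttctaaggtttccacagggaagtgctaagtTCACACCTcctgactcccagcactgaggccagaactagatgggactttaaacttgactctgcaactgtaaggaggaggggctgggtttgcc
Mesp2 start, chr7:79810848-79810875: ggggaccaccTCACACCTttagtccaga

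For contrast, the 2 T/BraKO regions of best mean rank that had no WT peak in any full list follow, with TCF/LEF words in capitals.
Enc1 region, chr13:97432822-97432972: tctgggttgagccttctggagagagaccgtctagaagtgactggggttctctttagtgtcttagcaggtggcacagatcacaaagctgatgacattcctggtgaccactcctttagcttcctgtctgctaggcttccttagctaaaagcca
Dab2 region, chr15:5851093-5851243: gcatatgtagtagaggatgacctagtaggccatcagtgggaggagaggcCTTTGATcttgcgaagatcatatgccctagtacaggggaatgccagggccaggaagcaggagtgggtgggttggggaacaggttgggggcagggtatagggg

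Regions only in WT ranked higher in their own lists than those only in T/BraKO. The 422 regions only in WT had a median mean rank of 4744 in the 3 WT lists (range 219 to 17571), whereas the 566 only in T/BraKO had a median mean rank of 9482 in their own lists (range 2278 to 18431), where rank 1 is the most significant peak. Their median fold enrichment was 7.08, 13.1 and 14.96 in the 3 WT libraries, with maxima of 43.4, 76.9 and 90.3. The regions only in T/BraKO had medians of 8.62, 6.995 and 6.67 and did not exceed 23.3. For comparison, regions in all 6 had medians from 12.2 to 16.6 in WT and from 14.1 to 18.5 in T/BraKO. Rank and fold chose these regions, so the values describe them and test nothing.

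A region without a peak among the 20000 best of a library could only be absent or ranked lower in its full list. Of the 422 regions only in WT, 244 (57.8%) had no peak in any full T/BraKO list, 116 had one in 1 list, 52 in 2 and 10 in all 3. Where a T/BraKO peak existed, its median fold was 4.74, 4.71 and 4.07 in the 3 libraries, with a highest value of 6.46. The rank cut that chose the regions also limited these folds. Of the 566 regions only in T/BraKO, 106 (18.7%) had no peak in any full WT list. This count was bounded by WT replicate 3, whose 469083 peaks covered 360 of the 566 regions (63.6%), whereas WT replicates 1 and 2 covered 155 and 239. When only WT replicates 1 and 2 had to lack a peak, a choice made after seeing the data, 256 regions remained. Close to the cut-off, 15, 5 and 28 of the regions only in WT ranked between 20001 and 25000 in T/BraKO replicates 1, 2 and 3, and the best rank any of them reached there was 20084. Of the regions only in T/BraKO, 50, 23 and 25 did so in WT replicates 1, 2 and 3, with a best rank of 20036.

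With the full lists in place of the 20000 best, 719060 merged regions resulted, of which 659 (0.0916%) were only in WT and 558 (0.0776%) only in T/BraKO. With the 5000 best, the balance shifted to 347 only in WT and 140 only in T/BraKO, and with the 10000 best the counts were 388 and 304. Which regions made up these counts was not compared between list lengths.

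The 10 best-ranked regions only in WT, without a peak in any full T/BraKO list, had fold enrichments that would place them among the strong peaks of a library. The first, on chromosome 3 (17893260 to 17893882, mm10), lay 54891 bp upstream of the start of Cypt12 in no annotated gene, with fold enrichments of 43.4, 76.9 and 73.9 in the 3 WT libraries. The second, on chromosome 1 (147236565 to 147237374), was intergenic, 742041 bp from Brinp3, with 34.1, 39.0 and 66.6. All 3 WT libraries were high at both, and no T/BraKO library had a peak.

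The third was a promoter region. It lay on chromosome 7 (133679893 to 133680445), 131 bp upstream of Mmp21, a matrix metalloproteinase, with fold enrichments of 29.7, 59.1 and 45.8. The fourth lay in an intron of Scara3, a scavenger receptor (chromosome 14, 65950825 to 65952087), with 25.97, 41.6 and 33.9. The fifth lay 51017 bp upstream of Gsk3b, the kinase inhibited by CHIR, on chromosome 16 (38037598 to 38038299), with 25.2, 40.6 and 42.8. Nearness to a start site is a position and was not tested as a link to the gene.

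The sixth lay on chromosome 19 (45722756 to 45723218), 19864 bp downstream of the start of Fgf8, which encodes an FGF ligand of the primitive streak and tail bud. Its fold enrichment was 31.8, 40.3 and 29.5 in WT. The remaining 4 lay nearest to Pstpip1 (19691 bp), Ubqln2 (14865 bp), Rprm (185341 bp) and Zfp60 (28981 bp), and their values in WT ranged from 21.7 to 56.6. All 10 regions were called in 3 of 3 β-catenin lists of CdxKO cells, a line deficient for the Cdx1, Cdx2 and Cdx4 genes that was treated in the same way and was not used to choose them.

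The 10 best-ranked of the 106 T/BraKO regions with no peak in any full WT list had lower values. Regions only in T/BraKO of better rank, up to a mean rank of 2278, were left out of these 10 because a full WT list had a peak there. The first, on chromosome 13 (97432573 to 97433069), lay 191792 bp downstream of the start of Enc1, a BTB-kelch protein, and a second region lay 3175 bp upstream of the same gene (97237800 to 97238080). Their fold enrichments were 19.3, 7.90 and 7.62, and 8.85, 7.18 and 11.1. A region 448620 bp upstream of Dab2, an endocytic adaptor (chromosome 15, 5850808 to 5851307), had 13.8, 12.8 and 8.84 and was repeat-masked over 100% of its length. No WT library had a peak at any of them.

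Others of the 10 lay inside Kcnt2, a potassium channel gene (16.4, 11.8 and 6.63), and inside Adgrl3, an adhesion receptor gene (16.4, 10.3 and 6.63), and 1026754 bp from its relative Adgrl2 (12.1, 8.64 and 9.95). The remaining 4 were nearest to Setmar, Tanc1, Skor1 and Pacsin2, with values from 6.01 to 13.8. Of the 10, 2 were called in 3 of 3 CdxKO β-catenin lists.

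**Figure D2:**
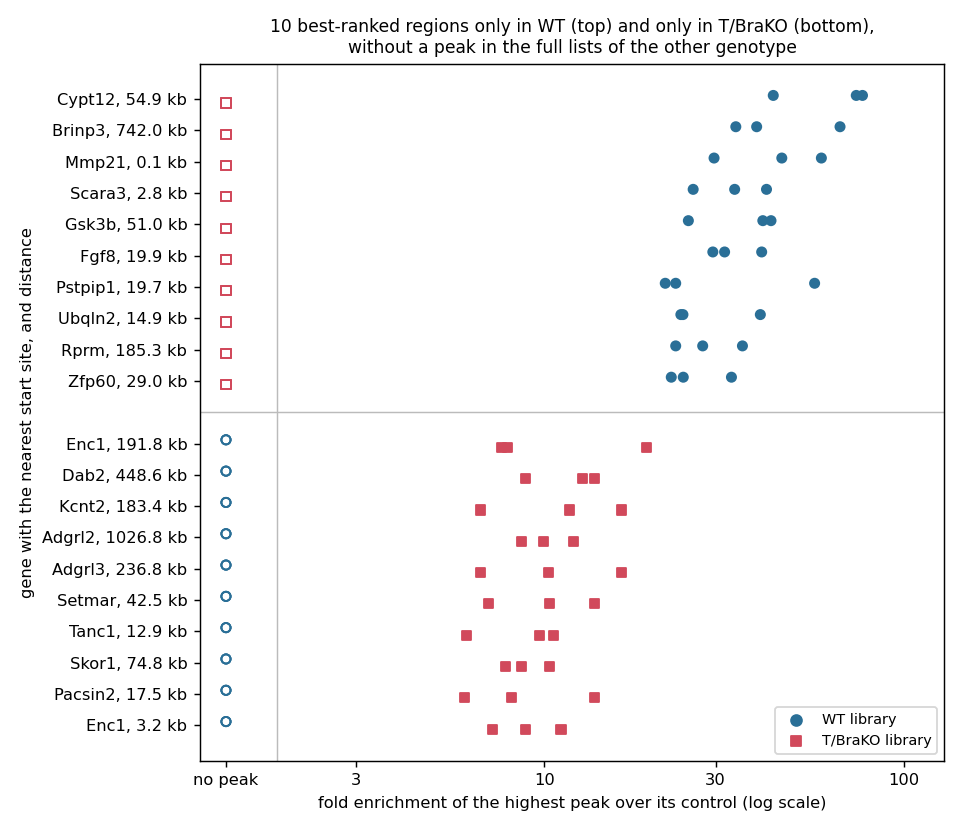
Fold enrichment (horizontal axis, log scale) of the highest peak in each of the 3 WT libraries (blue circles) and 3 T/BraKO libraries (red squares) at the 10 best-ranked regions only in WT and only in T/BraKO, labelled by the gene with the nearest start site; open symbols in the left column mark libraries without a peak. The WT values span 21.7 to 76.9 at the regions only in WT, and the T/BraKO values 6.01 to 19.3 at those only in T/BraKO.

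Libraries that took no part in choosing the regions were then examined. The 3 CdxKO β-catenin lists called 78.9%, 74.6% and 83.4% of the regions only in WT among their own 20000 best peaks, but 38.2%, 41.2% and 28.3% of the regions only in T/BraKO. They called 87.9%, 88.8% and 82.4% of the regions in all 6 and 14.0% to 15.6% of all 69143 regions. Of the 422 regions only in WT, 272 (64.5%) were called in 3 of 3 CdxKO lists and 38 in none. Of the 566 only in T/BraKO these numbers were 55 (9.72%) and 199 (35.2%). Calls in 3 of 3 CdxKO lists were made at 74.9% of the regions in all 6 and at 7.81% of all regions. When the 9 lists of the 3 genotypes were merged together, 269 regions were in all WT and all CdxKO lists and no T/BraKO list, and 54 in all T/BraKO and all CdxKO lists and no WT list. At most of the regions only in WT, then, the CdxKO lists stood with the WT lists. The regions only in WT also ranked higher than those only in T/BraKO, as given above, and these shares were not adjusted for rank.

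LEF1, a TCF/LEF factor that brings β-catenin to DNA, was profiled in the same 2 genotypes. LEF1 peaks of the WT cells (20000 best) lay at 9.48%, 14.2% and 21.6% of the regions only in WT, and LEF1 peaks of the T/BraKO cells at 1.90%, 2.61% and 2.37%. The groups did not overlap, and the difference was 12.8 percentage points (T/BraKO mean 2.29% ± 0.362, WT mean 15.1% ± 6.09, SD, n = 3; two-sided exact permutation test p = 0.1, the smallest that 3 against 3 allows, adjusted p = 0.15 over 6 tests). At the regions only in T/BraKO the LEF1 lists called 4.06%, 2.12% and 3.89% in WT and 4.42%, 4.59% and 5.48% in T/BraKO, without overlap among the 20000 best (exact permutation p = 0.1, adjusted p = 0.15). In the full LEF1 lists the groups overlapped there, with 36.6%, 33.6% and 17.3% in WT and 45.1%, 46.1% and 29.3% in T/BraKO (exact permutation p = 0.3), whereas at the regions only in WT they did not, with 44.1% to 58.5% in WT and 15.6% to 33.4% in T/BraKO (exact permutation p = 0.1). At the regions in all 6 the shares among the 20000 best were 26.9% to 40.4% in WT and 26.4% to 33.9% in T/BraKO and overlapped (exact permutation p = 0.5). Over all 69143 regions they were 4.67%, 3.25% and 3.86% in WT and 2.99%, 3.91% and 3.92% in T/BraKO. The LEF1 shares at the regions only in T/BraKO were thus close to those over all regions.

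SOX2 binding was profiled in parallel. SOX2 lists called 8.53%, 15.4% and 30.6% of the regions only in WT in WT cells and 6.16%, 8.29% and 6.87% in T/BraKO cells. The lowest WT value was just above the highest T/BraKO value (exact permutation p = 0.1, adjusted p = 0.15). Among the 20000 best, the opposite order was seen at the regions only in T/BraKO, with 9.72%, 11.5% and 23.0% in WT and 23.1%, 31.3% and 39.0% in T/BraKO (exact permutation p = 0.1, adjusted p = 0.15). With the full SOX2 lists this difference of 16.4 percentage points fell to 4.30 and the groups overlapped, with 54.4%, 33.6% and 49.5% in WT and 54.8%, 52.3% and 43.3% in T/BraKO (exact permutation p = 0.6). At the regions in all 6, SOX2 calls were 36.3%, 38.1% and 60.2% in WT and 51.8%, 60.5% and 65.3% in T/BraKO, which overlapped (exact permutation p = 0.2). The difference of means there was 14.3 percentage points, near the 16.4 at the regions only in T/BraKO. Over all 69143 regions the shares among the 20000 best were 6.22%, 5.93% and 11.4% in WT and 9.63%, 12.5% and 12.9% in T/BraKO. A higher mean in T/BraKO was thus not particular to the regions only in T/BraKO.

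**Figure D3:**
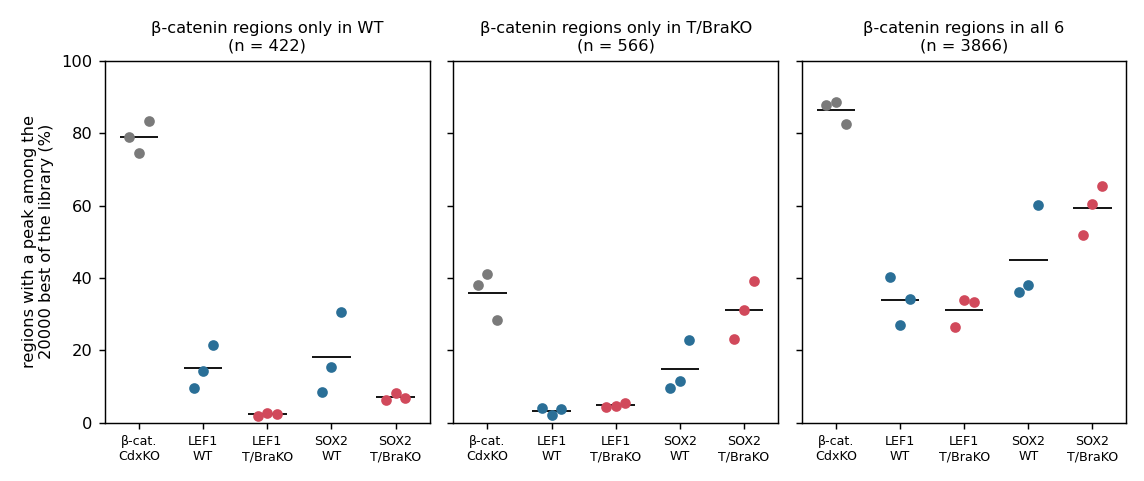
Share of β-catenin regions only in WT, only in T/BraKO and in all 6 (panels) that held a peak among the 20000 best of 15 other libraries (points, 3 per group; bars, means). CdxKO β-catenin libraries called 74.6% to 83.4% of the regions only in WT and 28.3% to 41.2% of those only in T/BraKO, and LEF1 in T/BraKO called at most 2.61% of the regions only in WT.

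Sequence was the other property the choice of regions had not used. The summit with 100 bp on either side held the T-box word AGGTGTGA on either strand in 19 of 422 regions only in WT (4.50%, with 95% Wilson bounds of 2.90 and 6.92), in 7 of 566 only in T/BraKO (1.24%, bounds 0.600 and 2.53), in 46 of 3866 in all 6 (1.19%, bounds 0.893 and 1.58) and in 906 of all 69143 windows (1.31%). Among the 106 regions without any WT peak, 0 held the word, which allows a share of up to 3.50% (Wilson). A looser spelling, AGGTGTNA, gave 8.77%, 4.95%, 3.62% and 3.31% in the same order. These intervals cover counting error over regions, which share their libraries, and a match to the letters is a description of the window.

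Across whole libraries, the T-box word was found at 1.44%, 1.78% and 1.42% of the 20000 best summits in WT and at 1.09%, 0.99% and 1.40% in T/BraKO (mean 1.55% ± 0.199 against 1.16% ± 0.214, SD, n = 3; two-sided exact permutation p = 0.1, adjusted p = 0.333 over 5 motifs). The highest T/BraKO library lay just below the lowest WT library.

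TCF/LEF words were common wherever β-catenin was reproducible. They occurred in 39.6% of windows only in WT, 38.3% only in T/BraKO and 51.3% in all 6, against 21.4% of all windows. SOX words (CCATTGT or CCTTTGT) occurred in 12.6%, 15.2% and 15.6%, against 10.3%, and CDX words (such as GCAATAAA) in 2.84%, 3.89% and 5.56%, against 4.07%. Between libraries, TCF/LEF words were at 28.8%, 27.2% and 26.5% of WT summits and at 31.6%, 28.1% and 36.6% of T/BraKO summits, where the groups overlapped (exact permutation p = 0.2), and SOX, CDX and the FOXH1 word AATCCACA gave exact permutation p-values of 0.2, 0.6 and 0.9.

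The regions only in WT stood out further by repeats. More than 50% of the bases were repeat-masked in 149 of 422 regions only in WT (35.3%), against 73 of 566 only in T/BraKO (12.9%), 9.80% of those in all 6 and 13.9% of all regions. Leaving such regions out, 273 regions were only in WT and 493 only in T/BraKO. Reads from near-identical copies of a repeat are hard to place, and peaks there are less certain than in unique sequence. Regions only in WT also lay less often near start sites, with 6.87% within 1000 bp of one (95% Wilson bounds 4.83 and 9.70) against 13.6% of those in all 6 and 14.9% of all regions. They lay in no gene in 54.5% of cases (bounds 49.7 and 59.2), against 44.5% and 40.3%, and in introns in 35.8%, against 39.5% and 41.3%.

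Many of the repeat regions belonged together. Of the 422 windows only in WT, 190 (45.0%) shared an exact 20-base word with another window of the set, whereas 78 of 566 only in T/BraKO (13.8%) and 770 of 3866 in all 6 (19.9%) did so within their sets, which differ in size. The words were searched for after the regions had been seen, and 1 or 2 of the most shared were kept per set. They are printed here because copies of them can be followed through the genome.
Word 1, most shared only in WT: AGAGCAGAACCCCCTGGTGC
Word 2, next only in WT from elsewhere in the element: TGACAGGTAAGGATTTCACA
Word 3, most shared only in T/BraKO: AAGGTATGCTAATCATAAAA
Word 4, most shared in all 6: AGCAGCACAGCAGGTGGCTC

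Words 1 and 2 came from one element. They occurred together in 64 windows at a median start-to-start distance of 64 bp, on opposite strands each time as spelled here. In the 3 windows below, capitals mark the 2 words. The windows are from regions only in WT that hold both and have no T/BraKO peak in the full lists. Not every chromosome was considered in choosing them, so a better-ranked region of this kind may exist.
Abcc1 region, chr16:14420223-14420423: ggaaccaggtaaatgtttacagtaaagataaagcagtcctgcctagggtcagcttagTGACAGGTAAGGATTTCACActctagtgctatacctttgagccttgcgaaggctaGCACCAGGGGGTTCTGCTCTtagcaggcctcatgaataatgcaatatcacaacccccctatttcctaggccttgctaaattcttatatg
Dnah12 region, chr14:26683228-26683428: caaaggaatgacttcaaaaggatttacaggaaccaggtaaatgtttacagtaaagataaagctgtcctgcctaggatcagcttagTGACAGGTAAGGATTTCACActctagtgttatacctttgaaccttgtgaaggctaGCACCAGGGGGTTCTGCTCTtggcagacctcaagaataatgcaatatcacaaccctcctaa
Gm20695 region, chr16:3890129-3890329: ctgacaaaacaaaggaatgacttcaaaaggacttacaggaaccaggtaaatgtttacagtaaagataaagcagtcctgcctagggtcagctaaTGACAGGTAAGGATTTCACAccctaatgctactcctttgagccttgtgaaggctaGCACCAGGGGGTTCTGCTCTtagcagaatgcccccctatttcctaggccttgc
These windows had fold enrichments of 14.1, 26.5 and 32.3, of 14.5, 28.2 and 23.3, and of 12.6, 20.5 and 32.8 in the 3 WT libraries.

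Word 1 or word 2 was present in 47 of 422 windows only in WT (11.1%), 0 of 566 only in T/BraKO, 74 of 3866 in all 6 (1.91%) and 253 of 69143 in all (0.366%). None of the 47 windows held the T-box word, so the 19 T-box matches lay in other regions. Of the 253 windows, 34 were called in 1 WT list alone and 2 in 1 T/BraKO list alone.

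The mm10 reference held 299 copies of word 1 and 204 of word 2, all in repeat-masked sequence. The 20000 best β-catenin peaks covered 54.5%, 66.2% and 58.9% of the word 1 copies in WT, 31.1%, 25.8% and 35.1% in T/BraKO and 65.9%, 63.2% and 65.6% in CdxKO. At word 2 the shares were 51.0%, 69.1% and 55.9%, then 25.5%, 22.5% and 31.4%, and then 63.2%, 67.2% and 67.6%. All WT and CdxKO libraries lay above all T/BraKO libraries at both words. Since the words were chosen from the regions only in WT, these shares describe the element and carry no test.

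The difference held in the full lists, where 57.5%, 72.2% and 71.9% of word 1 copies were in WT peaks and 41.1%, 32.4% and 39.8% in T/BraKO peaks. LEF1 showed it too, with word 1 copies at 16.4%, 22.4% and 28.4% in WT and 1.67%, 5.69% and 2.34% in T/BraKO. SOX2 peaks covered 6.02%, 14.0% and 26.1% of these copies in WT and 4.68%, 4.35% and 8.70% in T/BraKO, where the groups overlapped.

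The other words were followed in the same way. Word 4, the most shared in all 6, had 195 copies, of which 65.6%, 69.7% and 63.6% were in WT peaks and 55.4%, 50.3% and 61.5% in T/BraKO peaks. Word 3 had 724 copies, of which 7.04%, 6.49% and 4.70% were in WT peaks and 13.0%, 10.2% and 12.02% in T/BraKO peaks. The genotypes did not overlap at either word among the 20000 best, but did in the full lists, where word 4 was at 68.2%, 75.9% and 70.3% in WT and 69.2%, 56.4% and 65.6% in T/BraKO, and word 3 at 8.56%, 11.05% and 15.3% in WT and 21.5%, 12.7% and 14.9% in T/BraKO.

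**Figure D4:**
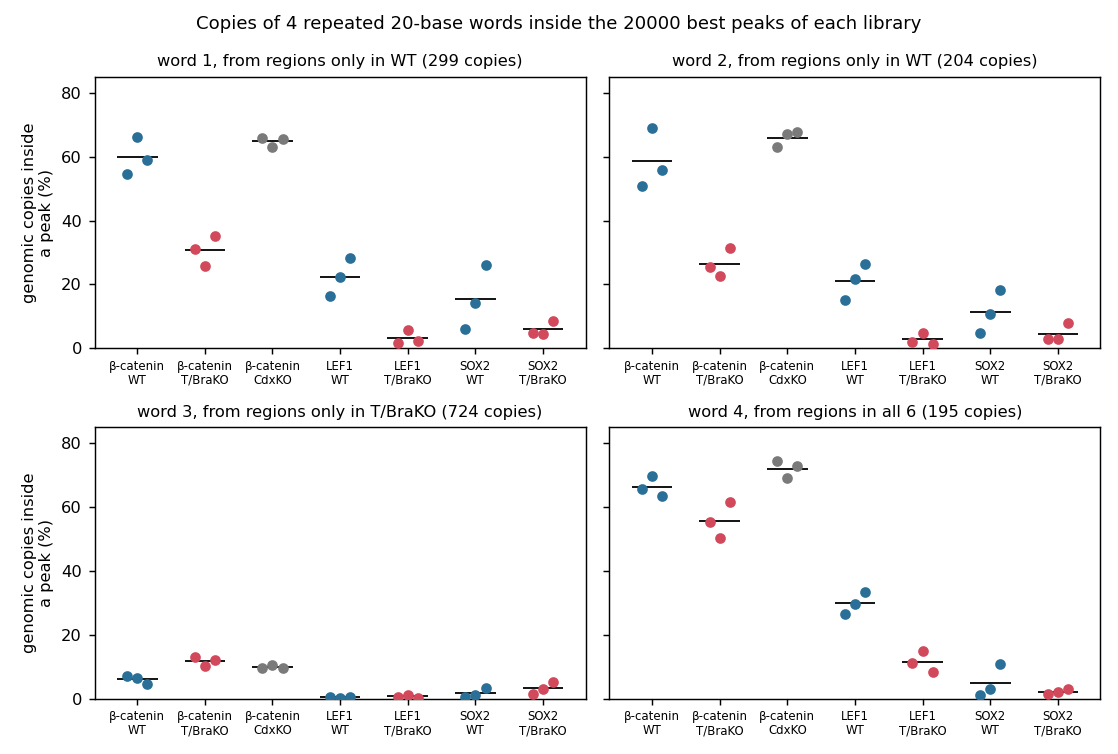
Share of the genomic copies of 4 repeated 20-base words (panels) that lay inside the 20000 best peaks of each library (points, 3 per group; bars, means). At words 1 and 2, T/BraKO β-catenin libraries cover 22.5% to 35.1% of copies and the WT and CdxKO libraries 51.0% to 69.1%.

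Fold enrichment was compared where a value existed in every library. Regions with a peak in all 6 full lists numbered 6883, and log2 fold enrichment, quantile-normalized, was tested with limma. In T/BraKO, 220 regions were lower (3.2%) and 24 higher (0.349%) at a Benjamini-Hochberg adjusted p below 0.05. The lower regions had a median log2 difference of -1.90 (range -3.54 to -1.07) and the higher regions one of 1.54 (1.13 to 1.78), against a median of 0.06 over all 6883. Without WT replicate 2 the counts were 106 and 12, without WT replicate 3 they were 145 and 8, and without T/BraKO replicate 1 they were 166 and 5.

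The strongest losses were at regions of high enrichment in WT. The lowest p-value belonged to a region 71085 bp from the start of Zfp354a on chromosome 11 (51129873 to 51130846), with folds of 38.7, 58.9 and 107 in WT and 7.50, 3.43 and 7.21 in T/BraKO. Its log2 difference was -3.54 ± 0.42 (SE; limma adjusted p = 4.87e-07). A region in an intron of Dnajb6, a heat shock co-chaperone gene, on chromosome 5 (29799758 to 29800680) had 52.3, 74.3 and 93.1 in WT and 9.21, 3.55 and 9.95 in T/BraKO (-3.48 ± 0.42, limma adjusted p = 4.87e-07). The groups were far apart at both.

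The other 8 of the 10 lowest p-values lay nearest to Cobl, Pcdh18, Klf6, R3hdm2, Amph, Appl1, Klhl32 and Tbc1d4, with log2 differences from -3.36 to -2.84 and limma adjusted p-values from 4.87e-07 to 4.89e-06. Cobl is an actin nucleator and Klf6 a zinc-finger transcription factor. All 10 regions were called in 3 of 3 CdxKO β-catenin lists and in 3 of 3 WT LEF1 lists, while T/BraKO LEF1 lists called R3hdm2 in 2, Cobl in 1 and the other 8 in none. More than 50% of the bases were repeat-masked in 6 of the 10, and all 10 stayed below the threshold in every alternative that included them.

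Regions higher in T/BraKO were fewer and less stable. A region 18669 bp upstream of Lyrm9 (chromosome 11, 78807523 to 78808145) had folds of 19.9, 19.4 and 42.8 in WT and 125, 52.5 and 86.1 in T/BraKO (log2 difference 1.69 ± 0.35, limma adjusted p = 0.00135). A region 13732 bp upstream of Ube2d2a, a ubiquitin-conjugating enzyme gene, had 56.6, 39.3 and 116 in WT and 168, 169 and 141 in T/BraKO (1.44 ± 0.30, limma adjusted p = 0.00119). A region 504 bp inside the start of Pdgfa, a growth factor gene, had 9.58, 6.36 and 8.797 against 44.8, 25.1 and 16.9 (1.57 ± 0.42, limma adjusted p = 0.0213). A region 19288 bp downstream of the start of Evx1, a homeobox gene of the primitive streak, had 11.8, 29.1 and 23.9 against 57.7, 46.9 and 56.5 (1.39 ± 0.38, limma adjusted p = 0.0224). The groups did not overlap in these 4. The calls at Lyrm9 and Ube2d2a held without any 1 library. The call at Pdgfa was lost without WT replicate 2 or 3 or T/BraKO replicate 1 or 2 (limma adjusted p from 0.0676 to 0.265), and that at Evx1 without WT replicate 1 or 3 or T/BraKO replicate 1 or 2 (0.0587 to 0.145), with median centring (0.0796) and without the trend in the limma prior (0.0533). The others of the 10 lay nearest to Fam208a, Opcml, Cd247, Prickle1, Has3 and Cga, and 7 of the 10 passed without WT replicate 1, 5 without WT replicate 2 or 3, 4 without T/BraKO replicate 1, 6 without T/BraKO replicate 2 and 9 without T/BraKO replicate 3.

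The lower regions shared properties with the regions only in WT. More than 50% of the bases were repeat-masked in 55.9% of the 220, against 9.44% of the 6883 and 0 of the 24 higher regions. Word 1 or word 2 was present in 60 of the 220 (27.3%), against 102 of 6883 (1.48%). The words were chosen from the regions only in WT, which the same libraries defined, so these shares are a description and no separate support. TCF/LEF words were in 157 of 220 windows (71.4%), against 45.9% of the 6883 and 13 of the 24 higher. The T-box word was in 0 of the 220, against 95 of 6883 (1.38%). This cannot be set against the regions only in WT, of which 19 held the word. Of those 19, 13 had no T/BraKO peak in any full list and so could not be among the 6883. The 95 shared regions that held the T-box word had a median log2 difference of -0.08, and 0 of them were called in either direction. Over all 6883 the called shares were 3.2% lower and 0.349% higher, so few calls would fall on 95 regions in any case.

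Repeats without these words were lower too, in part. The 102 shared regions with word 1 or word 2 had a median log2 difference of -1.58, with 60 called lower and 0 higher. The 549 other regions that were mostly repeat had a median of -0.12, with 64 called lower and 0 higher. Over all 6883 the called shares were 3.2% lower and 0.349% higher. LEF1 was called in 3 of 3 WT lists at 94 of the 220 lower regions (42.7%) and in 3 of 3 T/BraKO lists at 3 of them (1.36%), whereas over all 6883 the shares were 8.37% and 6.81%. CdxKO β-catenin was called in 3 of 3 lists at 213 of the 220 (96.8%), against 56.5% of the 6883 and 17 of the 24 higher regions (70.8%). At the 24 higher regions the order of LEF1 was the other way, with 2 in 3 of 3 WT lists and 7 in 3 of 3 T/BraKO lists. SOX2 was called in 3 of 3 lists at 3 of the 24 in WT (12.5%) and at 12 in T/BraKO (50%). Over all 6883 these SOX2 shares were 17.0% and 33.6%, and at the 220 lower regions 16.8% and 11.8%. A higher SOX2 share in T/BraKO was thus not particular to the higher regions.

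**Figure D5:**
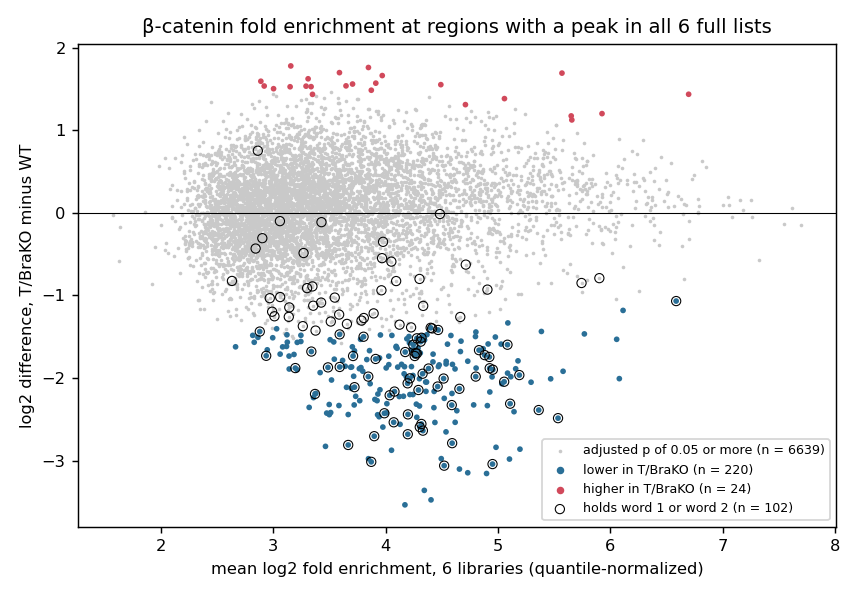
Log2 difference in quantile-normalized fold enrichment (T/BraKO minus WT, vertical axis) against the mean log2 fold enrichment of the 6 libraries at 6883 regions with a peak in all 6 full lists; blue and red mark the 220 lower and 24 higher regions, and open circles the 102 regions that hold word 1 or word 2. Of those 102 regions, 60 are among the lower and 0 among the higher.

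The genes were then read through 6 lists, with a gene taken as its body and 10000 bp on either side. Total peak numbers at the lists did not separate the genotypes. At 30 mesoderm genes the 20000 best held 78, 89 and 74 peaks in WT and 77, 75 and 90 in T/BraKO (exact permutation p = 1). At 24 WNT target genes they held 101, 88 and 92 against 91, 95 and 102 (exact permutation p = 0.7), and at 39 Hox genes 84, 64 and 60 against 85, 68 and 93 (exact permutation p = 0.2). The 22 pluripotency and 22 neural genes gave exact permutation p = 0.3 each, and 12 genes of fibroblasts, which can accompany ESC cultures as feeders, held 6 to 10 peaks per library (exact permutation p = 0.2). The groups overlapped at all 6 lists, as in the neural counts of 68, 49 and 46 against 71, 68 and 61.

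Within the T gene itself, the promoter region (chromosome 17, 8433378 to 8434783, summit 238 bp upstream of the start) was among the strongest in both genotypes. Its fold was 45.2, 52.1 and 55.7 in WT and 75.8, 26.5 and 83.6 in T/BraKO, and the values overlapped (log2 difference 0.14 ± 0.36, limma adjusted p = 0.924). A second region 4281 bp upstream had 4.94, 6.36 and 10.9 in WT and 6.89, 9.03 and 7.26 in T/BraKO (-0.02 ± 0.42, limma adjusted p = 0.996). Peak lists hold no measure of T/BRA protein, so the knockout was not checked here.

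Mesoderm genes held 3 regions only in WT and 2 only in T/BraKO. The strongest lay 4362 bp downstream of Mesp1, which encodes a bHLH factor of early mesoderm, with folds of 16.0, 26.5 and 29.5 in WT and 5.17, no peak and 4.00 in T/BraKO (chromosome 7, 79789189 to 79789803). The Mesp2 promoter region with the T-box word (chromosome 7, 79810610 to 79810893) had 5.05, 12.2 and 10.97 in WT and no peak in T/BraKO. It was called in 3 of 3 CdxKO lists and, of the regions at list genes, was the one absent from every full T/BraKO list.

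The third lay in an intron of Aldh1a2, which makes retinoic acid, with 6.30, 5.61 and 10.7 in WT and 4.82, 4.94 and no peak in T/BraKO. On the other side, a region at the promoter of Cyp26a1, which degrades retinoic acid, had no peak, no peak and 3.51 in WT and 6.73, 6.995 and 8.84 in T/BraKO. A region 7758 bp downstream of Mesp2 had no peak, no peak and 2.74 in WT and 12.9, 5.25 and 11.3 in T/BraKO.

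WNT targets held 2 regions only in WT and 1 only in T/BraKO. A region in Sp8, a zinc-finger gene, had 7.08, 8.69 and 8.27 in WT against 6.03, 5.35 and no peak, and one in an intron of Lef1 had 5.16, 5.13 and 8.99 against no peak, no peak and 3.60. A region in an intron of Tcf7l2, another TCF/LEF gene, had no peak, 3.702 and no peak in WT against 11.6, 5.92 and 10.7 in T/BraKO. The T/BraKO folds at Sp8 lay close under those of WT, whereas the other 2 regions lacked a peak in 2 libraries of the lower genotype.

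Among the other lists, a region in Hoxd3 that also counts for its neighbour Hoxd4 was only in WT (5.77, 7.38 and 17.1 against 2.80, 4.94 and 4.79). Regions in Pax3, a neural crest and dorsal neural tube gene (4.72, 3.42 and no peak in WT against 7.76, 5.54 and 7.66), and upstream of Tfcp2l1, a naive pluripotency gene (no peak, 3.37 and no peak against 7.08, 11.96 and 12.9), were only in T/BraKO. The fibroblast list held none of either kind. The shares of regions only in WT at the mesoderm, WNT target and Hox lists were 0.711%, 0.474% and 0.237%, against 0.282%, 0.276% and 0.257% of all regions and 0.698%, 0.957% and 0.776% of those in all 6, and rest on 3, 2 and 1 regions. The share at mesoderm genes was thus close to that of regions in all 6, and the shares at WNT target and Hox genes lay below it. For the regions only in T/BraKO, the shares at mesoderm, WNT target, pluripotency and neural genes were 0.353%, 0.177%, 0.177% and 0.177%. Those of all regions were 0.282%, 0.276%, 0.185% and 0.217%. The shares only in T/BraKO rest on 2, 1, 1 and 1 regions and were near or below those of all regions.

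Of the shared regions tested by fold, 42 lay at mesoderm genes, of which 3 were lower in T/BraKO and 0 higher, against 3.2% lower and 0.349% higher over all shared regions. They were a region 1343 bp upstream of Hes7, a repressor of the segmentation clock (15.7, 39.4 and 17.5 in WT and 10.3, 4.08 and 2.62 in T/BraKO, log2 difference -2.36 ± 0.46, limma adjusted p = 0.000684), one within 10000 bp of Wnt3a, a WNT ligand of the tail bud, that is nearer to the start of Arf1 (16.4, 60.6 and 76.8 against 17.0, 8.11 and 9.22, -2.05 ± 0.44, limma adjusted p = 0.00185), and one 9463 bp downstream of the start of Fgf8 (9.94, 32.1 and 36.5 against 5.54, 4.80 and 13.2, -1.79 ± 0.47, limma adjusted p = 0.0167). The genotypes did not overlap at Hes7 and did at Wnt3a and Fgf8. The median over the 42 was 0.06, that of all regions.

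Of the 45 shared regions at Hox genes 1 was lower, a share under the 3.2% of all shared regions. It lay 4861 bp from the start of Hoxb1 (12.5, 20.3 and 27.6 against 6.42, 4.93 and 12.01, -1.56 ± 0.44, limma adjusted p = 0.0323). The genotypes did not overlap there. At the 51 shared regions of WNT targets, 24 of pluripotency genes and 3 of fibroblast genes, limma called 0 in either direction. Without WT replicate 2 the call at Hes7 remained, and the limma adjusted p-values were then 0.087 at Wnt3a, 0.188 at Hoxb1 and 0.224 at Fgf8. Without WT replicate 3 the call at Hes7 remained and those at Wnt3a, Hoxb1 and Fgf8 did not. Hoxb1 and Fgf8 were also lost without T/BraKO replicate 1 or 2.

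Similarity of whole lists was measured last. The Jaccard index, the number of regions shared by 2 lists over the number in either, was 0.220, 0.210 and 0.186 between WT libraries, 0.299, 0.321 and 0.270 between T/BraKO libraries and 0.180 to 0.284 between genotypes. The mean within a genotype was 0.251 and between genotypes 0.224, an excess of 0.0270 that was the largest of the 10 ways of splitting the 6 libraries into 3 and 3 (one-sided exact permutation p = 0.1, the smallest possible). The excess rose to 0.0686 without WT replicate 1, and to 0.0421 and 0.039 without WT replicates 2 and 3. It fell to 0.00159, 0.00229 and 0.00855 without T/BraKO replicates 1, 2 and 3, and to 0.000559 with the full lists (one-sided exact permutation p = 0.4). The T/BraKO lists were more alike (mean 0.297) than the WT lists (mean 0.206). WT replicate 1 was closer to each T/BraKO library (0.284, 0.254 and 0.275) than to either WT library.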

How the data were processed

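Peaks were called by the authors per sample with MACS2 on mm10, and per the labels reads were single-end. Per the file formats, the deposited lists give fold enrichment over control, a ratio, and −log10 of the p-value and q-value for each peak. Which input served as control is not given in the sources used here, and input libraries were not analysed here. The members and the gene lists were chosen with earlier results of these data known. Peaks of the 20000 best by −log10 q, or of the full lists, were merged where they overlapped by at least 1 bp. Gene places and sequences came from GRCm38.p6. Named regions were the 10 of best mean rank in 3 of 3 lists of one genotype and in no full list of the other, the 10 lowest limma p-values in each direction, and called regions at list genes. The 20-base words and the strand of their copies were examined after seeing the data. Library values were compared by two-sided exact permutation over 20 assignments, whose smallest p is 0.1. Log2 fold enrichment was tested with limma 3.58.1 (R 4.3.3) at a Benjamini-Hochberg adjusted p of 0.05, with the step first tested on simulated data. Other steps used Python 3.11.15. The p-values measure the spread between the biological replicates named in the labels. Depth is unknown, and intervals cover counting error only. Alternatives were other list lengths, scalings and left-out libraries. One called region at a list gene is not reported here.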

Additional observations from a re-analysis of the deposited data

How the results depend on the processing

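Lists of other lengths moved the counts. Regions only in T/BraKO numbered 140 with the 5000 best and 304 with the 10000 best, and regions only in WT 659 with full lists. Requiring absence from the other genotype's full lists left 244 and 106, absence from WT replicates 1 and 2 alone (chosen after seeing the data) 256, and leaving out regions more than 50% repeat-masked 273 only in WT and 493 only in T/BraKO. Without 1 library, when 2 of 2 lists sufficed, regions only in WT ranged from 482 to 827 and only in T/BraKO from 772 to 1457. Shared regions lower in T/BraKO ranged from 106 to 247 and higher from 5 to 45, and the excess in overlap from 0.00159 to 0.0686. Other limma settings gave 528 lower and 37 higher with missing values set to the lowest fold, and 13 higher with median centring, 42 with log2 of −log10 q and 15 with regions in the 20000 best of all 6.

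Differences below are T/BraKO minus WT and changed sign. With the 5000 best they were -0.2 percentage points for TCF/LEF words, -0.84 promoter, 1.71 intron and -0.673 no gene, and -6 mesoderm, -4.33 Hox, -1.67 neural and -0.333 fibroblast peaks. With the 10000 best they were -1.3 promoter, 1.43 intron, -3.67 mesoderm and -0.667 Hox. Full lists gave -1.78 no gene, -92.3 mesoderm, -97.7 WNT target, -34.7 Hox, -42.7 pluripotency, -68.7 neural and -35.3 fibroblast peaks, and at a −log10 q of at least 5 they gave -1.14, -37, -40.7, -9.67, -18, -16 and -4.67. Ranking by fold gave -0.183 no gene, and leaving out X and Y 0.015 intron and -0.0217 no gene. The T region 4281 bp upstream gave 0.13 without normalization, 0.19 on −log10 q, 0.0619 in the 20000 best of all 6 and 0.0642 with imputed values, and the T promoter -0.0856 with median centring. The cause was not tested.

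Without 1 library at a time the ranges were -0.505 to -0.27 for T-box, -0.113 to 0.907 for CDX and -0.00667 to 0.0633 for FOXH1 words, -0.801 to 2.13 promoter, -0.887 to 0.418 intron, -0.768 to 0.797 no gene, -4.33 to 4.67 mesoderm and -0.667 to 6 WNT target peaks. LEF1 ranged from -15.6 to -9.56 at regions only in WT and from 0.854 to 1.83 at those only in T/BraKO, and SOX2 from -15.9 to -4.86 and from 12.5 to 20.6. The T regions ranged from -0.25 to 0.20 and from -0.17 to 0.63.

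Same-numbered libraries correlated at 0.063, -0.0254 and 0.116 over 6883 regions, so the numbers were not taken to pair the samples. With the replicate block, limma gave 228 lower and 26 higher, and the T-box difference of -0.385 had an exact sign-flip p of 0.25, the smallest 3 pairs allow.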
